A study of Mus musculus with 39 samples.

Results

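The alpha-defensins and 8 further genes listed as Paneth cell products were followed through ileum, duodenum/jejunum and colon of BALB/cJ and C57BL/6J mice. Members were every entry whose symbol starts with Defa, together with Lyz1, Mmp7, Ang4, Ang5, Ang6, Itln1, Nupr1 and Habp2. These were 47 of the 34600 entries in each tissue's table: 39 Defa symbols, of which 17 carry the pseudogene suffix -ps, and all 8 products. RNA came from 6 BALB/cJ and 7 C57BL/6J mice, and each mouse gave a library of all 3 tissues, 39 libraries in all. Both are inbred strains with no engineered allele or treatment named in the labels, and age, sex, housing and litter are not given in the sources used here. Values are TPM, the relative abundance of a gene's transcripts scaled to transcript length and to the library total.

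Paneth cells sit at the base of the crypts of the small intestine and release granules of antimicrobial proteins into the lumen. Alpha-defensins, called cryptdins in the mouse, are made as precursors, and in mice the metalloproteinase Mmp7 (matrilysin) cuts the precursor to release the active peptide. The peptide is held in shape by bonds between its cysteines and kills bacteria by disrupting their membranes. The genes lie in a cluster of recent duplicates on chromosome 8, and several copies encode the same protein. Lyz1 is the lysozyme of Paneth cells, Ang4 a microbicidal ribonuclease of the angiogenin family, and Itln1 an intelectin that binds microbial sugars. Nupr1 is a small stress-response nuclear protein and Habp2 a secreted serine protease. The normal mouse colon has few or no Paneth cells. In whole tissue, fewer cells of a type and less RNA per cell cannot be told apart.

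The 39 libraries each summed to between 979558 and 996230 TPM over the listed entries, and the read depth behind them is unknown. The pair of small intestinal libraries of C57BL/6J mouse 2 stood apart. Its library labelled ileum had 22.1 TPM of the ileal bile acid binding protein Fabp6, against 3766 to 8189 TPM in the other C57BL/6J ilea, and 51.2 TPM of the duodenal enteropeptidase Tmprss15, against 0.0122 to 0.0304 TPM. Its library labelled duodenum/jejunum had 6111 TPM of Fabp6, against 3.12 to 32 TPM in the other C57BL/6J libraries of that label, but its Tmprss15 was 39.2 TPM. The labels were kept, and results that rest on these libraries are given with and without mouse 2.

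Several members are near copies, which limits what can be said of each alone. The sequences of the last coding exon, which holds the mature peptide, are shown for the genes on which the strain comparison turns. They were read from GENCODE transcripts with GRCm38 positions, plus strand, 5′ to 3′, with capitals at the bases that differ from Defa20 in a pairwise alignment whose gaps are not drawn. The first, Defa20 at chr8:21510028-21510140, is also the sequence of Defa32, Defa2 and Defa33, base for base. Defa21 (chr8:21026314-21026420) and Defa22 (chr8:21163046-21163152) were, with those 4, nearly absent from BALB/cJ.
Defa20: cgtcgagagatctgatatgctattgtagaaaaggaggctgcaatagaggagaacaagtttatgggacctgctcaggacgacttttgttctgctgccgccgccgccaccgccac
Defa21: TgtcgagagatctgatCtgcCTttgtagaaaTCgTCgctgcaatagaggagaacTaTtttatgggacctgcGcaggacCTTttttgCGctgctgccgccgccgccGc
Defa22: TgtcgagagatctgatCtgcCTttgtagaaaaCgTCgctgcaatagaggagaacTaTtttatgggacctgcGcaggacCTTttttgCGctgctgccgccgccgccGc
Defa27 (chr8:21316278-21316384) and Defa31 (chr8:21192345-21192451) had more RNA in BALB/cJ, and Defa24 (chr8:21735268-21735374) was abundant in both strains.
Defa27: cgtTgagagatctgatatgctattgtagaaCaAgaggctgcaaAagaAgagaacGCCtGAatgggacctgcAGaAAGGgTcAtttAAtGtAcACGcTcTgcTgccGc
Defa31: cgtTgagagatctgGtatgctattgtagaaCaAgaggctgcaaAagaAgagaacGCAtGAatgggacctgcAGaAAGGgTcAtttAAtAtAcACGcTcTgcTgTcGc
Defa24: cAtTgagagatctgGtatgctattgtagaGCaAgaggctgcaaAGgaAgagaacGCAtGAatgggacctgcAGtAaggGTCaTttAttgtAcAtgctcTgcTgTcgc
Against the Defa20 exon, 17 bases of Defa21 and 16 of Defa22 differed, while 29 of Defa27, 31 of Defa31 and 27 of Defa24 did.

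The whole coding sequence was identical within each of 5 pairs, Defa20 and Defa32, Defa2 and Defa33, Defa17 and Defa3, Defa23 and Defa31, and Defa36 and Defa37. Defa5, Defa34 and Defa35 share their last exon. In the annotated transcripts of Defa2, Defa20, Defa23, Defa31, Defa32, Defa33 and Defa37, none of the 31-base words was unique to the gene, whereas 28.3% were unique in Defa27, 42.9% in Defa24 and 65.8% in Lyz1. A read from such a copy can be split among several genes, so a single level within these pairs is uncertain. Sums over the copies are therefore given beside the single levels. The genome build is that of C57BL/6J, and the effect of BALB/cJ sequence differences on the values was not tested.

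Of the 39 Defa entries, 11 were listed at 0 in all 39 libraries, and 18 had a mean of at least 100 TPM in some group of a strain and tissue. A mean of at least 100 TPM was reached by 10 Defa members in BALB/cJ ileum and by 17 in C57BL/6J ileum. In duodenum/jejunum this held for 10 in BALB/cJ and 16 in C57BL/6J, and in colon for 0 in both strains. Fewer Defa symbols had RNA in BALB/cJ ileum, where 19 of the 39 stayed at 0 throughout, against 12 in C57BL/6J ileum. These are counts of symbols, and copies without a unique 31-base word cannot be counted apart. Alpha-defensins under other symbols, and any copies absent from the C57BL/6J build, are outside the counts. The number of alpha-defensin genes in use in each strain was therefore not tested.

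Summed over all Defa entries, BALB/cJ ileum held less alpha-defensin RNA than C57BL/6J ileum, and the strains overlapped in the other tissues. The ileal sum was 30326 TPM at its lowest, 35855 at the median and 43324 at its highest in BALB/cJ, against 4131, 93052 and 121360 TPM in C57BL/6J. The lowest C57BL/6J value was that of mouse 2, and without it the lowest was 43985 TPM, above every BALB/cJ library. The means were 35802 ± 4888 TPM in BALB/cJ (SD, n = 6) and 81253 ± 41919 TPM in C57BL/6J (SD, n = 7), a ratio of 0.441, or 0.380 without mouse 2. The Defa entries took 3.60 ± 0.49% of all TPM in BALB/cJ ileum and 8.18 ± 4.22% in C57BL/6J ileum, or 9.48 ± 2.70% without mouse 2. No p is given for sums, since the members were chosen with earlier results known.

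In duodenum/jejunum the Defa sum ran from 23370 through a median of 31841 to 59549 TPM in BALB/cJ, against 31633, 46090 and 61063 TPM in C57BL/6J. The ranges overlapped, and the ratio of means was 0.811. In colon the sum was 31.1, 72.7 and 163.9 TPM in BALB/cJ, against 40.9, 71.0 and 99.5 TPM in C57BL/6J, with a ratio of 1.18 and full overlap. The colon sums lay far below those of the small intestine in both strains, taking 0.00827% of the BALB/cJ and 0.00703% of the C57BL/6J colon total.

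**Figure D1:**
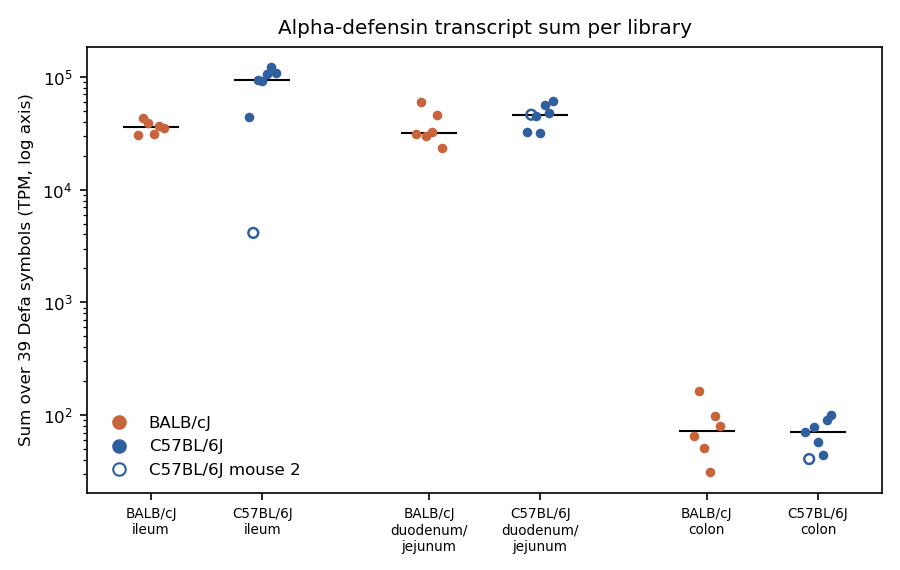
Sum of all 39 Defa entries in TPM (log axis) for each library by tissue, BALB/cJ left of C57BL/6J, with a black line at the median of all libraries of the group and an open circle for C57BL/6J mouse 2. The BALB/cJ ilea lie between 30326 and 43324 TPM, below every C57BL/6J ileum except mouse 2, while the groups overlap in duodenum/jejunum and colon.

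A set of 7 members was at or near 0 in BALB/cJ: Defa2, Defa20, Defa21, Defa22, Defa26, Defa32 and Defa33. It was picked after the values were seen and for being low in BALB/cJ, so the direction of its sum follows from the choice. Together they summed to 26.2, 30.7 and 57.6 TPM in BALB/cJ ileum (lowest, median, highest), against 572, 44669 and 58626 TPM in C57BL/6J ileum. In duodenum/jejunum their sum was 12.3, 15.2 and 23.8 TPM in BALB/cJ, against 6574, 12463 and 19030 TPM in C57BL/6J. The remaining Defa entries averaged 35767 ± 4887 TPM in BALB/cJ ileum (SD, n = 6) and 42563 ± 21394 TPM in C57BL/6J ileum (SD, n = 7), or 49063 ± 13939 TPM without mouse 2. In duodenum/jejunum the remainder averaged 37039 ± 13309 TPM in BALB/cJ (SD, n = 6) and 33386 ± 8024 TPM in C57BL/6J (SD, n = 7). This remainder still holds Defa27, which was near 0 in C57BL/6J. With Defa27 set aside as well, it averaged 32132 ± 4303 TPM in BALB/cJ ileum and 42558 ± 21392 TPM in C57BL/6J ileum, or 49057 ± 13938 TPM without mouse 2. In duodenum/jejunum it then averaged 32677 ± 11819 TPM in BALB/cJ and 33383 ± 8022 TPM in C57BL/6J.

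Per unit of Lyz1 RNA, the Defa entries outside the 7 and Defa27 overlapped between the strains. In ileum they stood at 7.17 to 8.88 TPM per TPM of Lyz1 in BALB/cJ, with a mean of 7.97 ± 0.64 (SD, n = 6), against 7.33 to 9.12 in C57BL/6J, with a mean of 8.01 ± 0.60 (SD, n = 7, mouse 2 included). With Defa27 kept, the BALB/cJ mean was 8.87 ± 0.73. The whole Defa sum per TPM of Lyz1 was 8.88 ± 0.73 in BALB/cJ ileum and 14.6 ± 2.8 in C57BL/6J ileum, or 15.5 ± 1.18 without mouse 2. In duodenum/jejunum the whole sum per TPM of Lyz1 was 9.34 ± 1.95 in BALB/cJ and 12.8 ± 2.56 in C57BL/6J, and outside the 7 and Defa27 it was 8.23 ± 1.73 in BALB/cJ and 9.31 ± 1.21 in C57BL/6J. The 7 and Defa27 were set aside for their strain difference in these data, so the closeness of the remainder follows in part from that choice. The remainder also held members with opposite differences, such as Defa30 (814 and 4615 TPM in BALB/cJ and C57BL/6J ileum by means) and Defa31 (8946 and 3216 TPM). Alpha-defensins under other symbols are not in it.

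Each gene was compared between strains in limma on log2(TPM + 1), with p-values adjusted over every gene tested in that tissue and a call below 0.05. Fold changes on this scale are written as log2 differences with their standard error, BALB/cJ over C57BL/6J, and they understate the change of genes with low values. Of all 15537 genes tested in ileum, 20.4% were called, 17.2% higher and 3.17% lower in BALB/cJ. The median log2 difference of all genes was 0.168, so these shares depend on scaling. With size factors that bring that median near 0, 11.8% of 15500 genes were called, 938 higher and 884 lower. Among the 25 Defa members that passed the filter on low values, 1 was higher and 16 were lower in BALB/cJ. Of the 16, 9 passed the filter through C57BL/6J alone, so that the filter set their direction, and these were Defa2, Defa21, Defa26, Defa28, Defa32, Defa33, Defa-ps5, Defa-ps8 and Defa-ps18. Among the other 16 members, which reached 1 TPM in at least 6 libraries of each strain, 1 was higher, 7 were lower and 8 were not called. Without C57BL/6J mouse 2, 2 were higher and 21 lower, beside 23.5% of all genes called (19.6% higher and 3.86% lower), and among those 16 members 2 were higher and 12 lower. The strains did not overlap in 10 of the 25, beside 9.82% of all genes tested, and in 20 without mouse 2, beside 12% of all genes. Both counts include members that passed the filter through C57BL/6J alone.

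Defa20 and Defa32, which share their coding sequence, had the highest C57BL/6J means of the members near 0 in BALB/cJ ileum. Defa20 was listed at 4.44, 17.9 and 27.6 TPM in BALB/cJ (lowest, median, highest), against 239, 16470 and 22406 TPM in C57BL/6J, 827-fold lower by means (log2 difference -9.06, SE 0.90, adjusted p = 6.33e-06). Defa32 stood at 0, 7.09 and 22.2 TPM in BALB/cJ, against 44.7, 8556 and 12990 TPM in C57BL/6J (log2 difference -9.30, SE 1.19, adjusted p = 8.44e-05). Neither gene's strains overlapped, and the lowest C57BL/6J value of both was mouse 2. Defa2 and Defa33 were listed at 0 in all 6 BALB/cJ ilea, against medians of 3663 TPM for Defa2 and 2195 TPM for Defa33 in C57BL/6J (adjusted p = 2.84e-07 for Defa2 and 1.04e-05 for Defa33). As a sum, these 4 genes averaged 26.3 ± 7.0 TPM in BALB/cJ ileum (SD, n = 6) and 27432 ± 14557 TPM in C57BL/6J ileum (SD, n = 7), and the sum differed as the single copies did.

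Defa21 and Defa22, whose coding sequences are 99.3% identical, were both lower in BALB/cJ. Defa21 was listed at 0, 0 and 4.03 TPM in BALB/cJ ileum, against 116, 7635 and 9483 TPM in C57BL/6J (log2 difference -11.30, SE 0.90, adjusted p = 5.21e-07). Defa22 was listed at 3.24, 5.58 and 13.6 TPM in BALB/cJ, against 84.3, 5302 and 7333 TPM in C57BL/6J (log2 difference -8.67, SE 0.86, adjusted p = 6.33e-06). Defa26, a less abundant cryptdin gene, stood at 0, 0.810 and 2.99 TPM in BALB/cJ, against 19.7, 331 and 364 TPM in C57BL/6J (log2 difference -6.87, SE 0.64, adjusted p = 2.93e-06). In all 3 the lowest C57BL/6J library, mouse 2, was still above the highest BALB/cJ library.

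Defa27 was the only Defa member called higher in BALB/cJ ileum. It was listed at 2699, 3746 and 4530 TPM in BALB/cJ, against 0, 4.58 and 7.49 TPM in C57BL/6J, 752-fold higher by means (log2 difference 9.50, SE 0.40, adjusted p = 3.43e-10). Defa31 was listed at 7206, 8780 and 10818 TPM in BALB/cJ, against 138, 3824 and 5726 TPM in C57BL/6J, without overlap, at 2.78 times the C57BL/6J mean. It missed the threshold with mouse 2 in the comparison (log2 difference 2.03, SE 0.69, adjusted p = 0.0523) and passed it without (1.37, SE 0.28, adjusted p = 0.00338). Defa23, which has the same coding sequence, was listed at 1454, 2035 and 2595 TPM in BALB/cJ, against 800, 4634 and 5089 TPM in C57BL/6J (adjusted p = 0.199, or 0.00335 without mouse 2). The ratio of Defa31 to Defa23 was 4.49 ± 0.91 in BALB/cJ and averaged 0.746 in C57BL/6J (0.841 without mouse 2), and their sum averaged 10984 ± 1637 TPM in BALB/cJ and 7078 ± 3510 TPM in C57BL/6J (SD, n = 6 and 7).

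**Figure D2:**
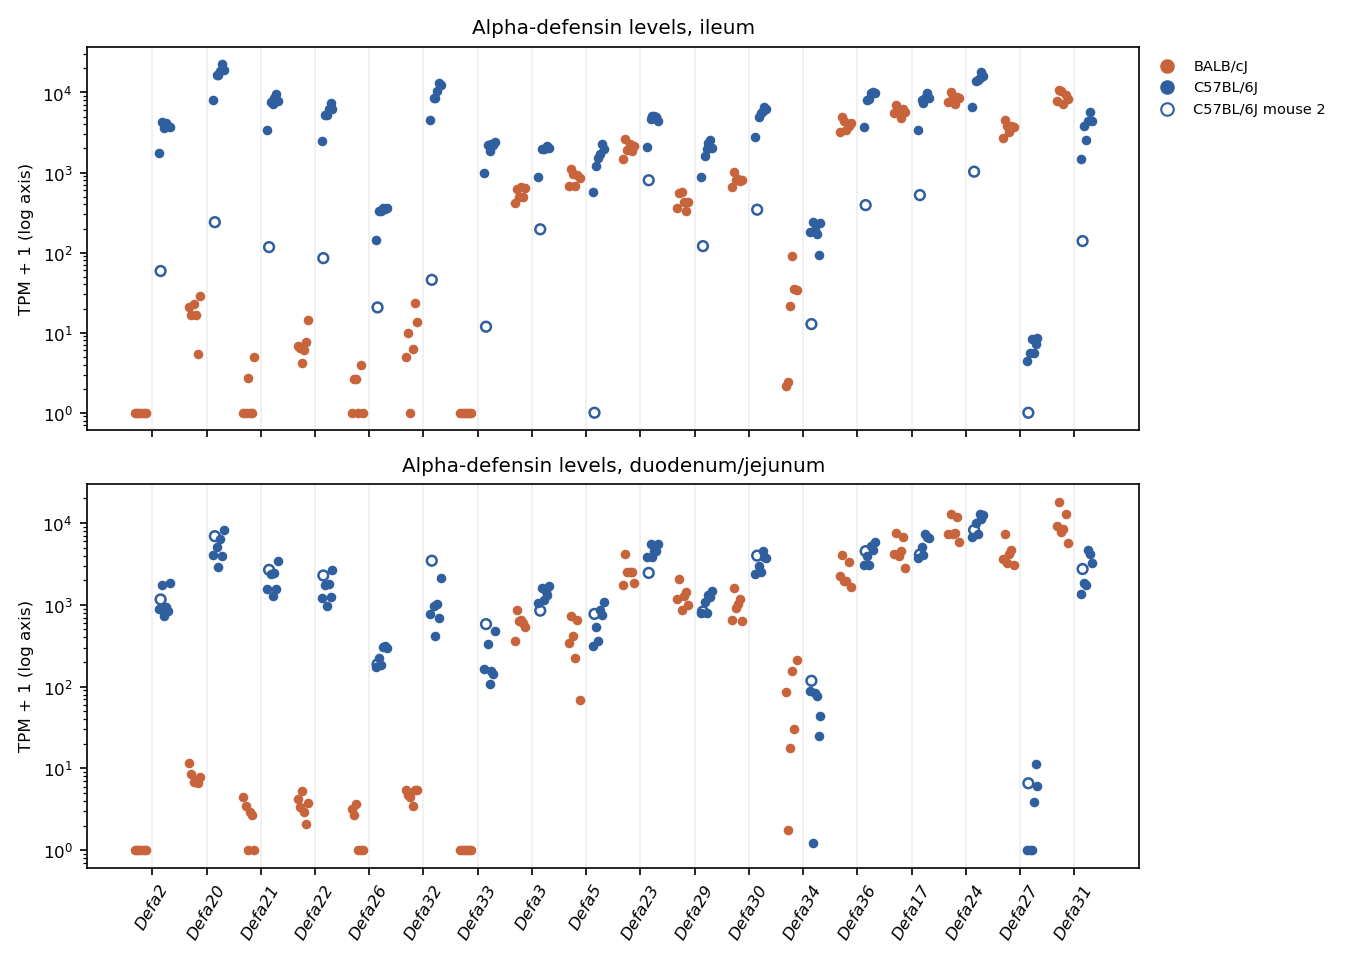
TPM + 1 (log axis) of the 18 Defa members with a mean of at least 100 TPM in some group, for each library of ileum and duodenum/jejunum, BALB/cJ beside C57BL/6J and C57BL/6J mouse 2 as open circles. Defa2, Defa20, Defa21, Defa22, Defa26, Defa32 and Defa33 lie at or near 0 in BALB/cJ in both tissues, and Defa27 lies near 0 in C57BL/6J.

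With all mice included, members abundant in both strains were less clearly separated in ileum. Defa30, whose coding sequence is 98.6% identical to that of Defa24, was lower in BALB/cJ ileum, at 668, 804 and 1013 TPM, against 343, 5564 and 6624 TPM in C57BL/6J (log2 difference -2.11, SE 0.57, adjusted p = 0.0207). Defa24 was listed at 7258, 8573 and 10073 TPM in BALB/cJ, against 1024, 14249 and 18035 TPM in C57BL/6J (log2 difference -0.14, adjusted p = 0.883, or -0.67 and 0.0387 without mouse 2). Defa17 stood at 4788, 5967 and 6981 TPM in BALB/cJ, against 522, 7973 and 9725 TPM in C57BL/6J, and was not called with or without mouse 2 (adjusted p = 0.783, or 0.344). The strains overlapped in these 3 genes, and the lowest C57BL/6J value was again mouse 2. Without mouse 2, Defa30 did not overlap (log2 difference -2.67, SE 0.19, adjusted p = 2.48e-07), while Defa24 and Defa17 still did.

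Defa3, Defa29 and Defa36 passed the threshold in ileum only when mouse 2 was left out. Defa3 was listed at 415, 557 and 650 TPM in BALB/cJ, against 194, 1948 and 2162 TPM in C57BL/6J (adjusted p = 0.0803, or 6.66e-05 without mouse 2). Defa29 was listed at 334, 430 and 569 TPM in BALB/cJ, against 120, 1988 and 2572 TPM in C57BL/6J (adjusted p = 0.0829, or 3.05e-05). Defa36 was listed at 3166, 4020 and 4987 TPM in BALB/cJ, against 391, 8188 and 10257 TPM in C57BL/6J (adjusted p = 0.703, or 0.00809). In all 3 the lowest C57BL/6J value was mouse 2, and the next lowest was above every BALB/cJ library for Defa3 and Defa29 but not for Defa36. Defa34 was listed at 1.15, 26.7 and 89.3 TPM in BALB/cJ, against 11.8, 178 and 240 TPM in C57BL/6J. Defa28, Defa34 and Defa35 were called lower in BALB/cJ with mouse 2 included, by log2 differences of -2.43, -3.01 and -2.43 (adjusted p = 0.00877, 0.0353 and 0.0339). Without mouse 2 they were called too and did not overlap, at -2.94, -3.56 and -3.16 (adjusted p = 7.51e-06, 0.00732 and 5.65e-07). The call of Defa34 with all mice was lost without a filter (0.0654). Defa5, at 671, 899 and 1100 TPM in BALB/cJ against a C57BL/6J median of 1497 TPM and a mouse 2 value near 0, had no call (adjusted p = 0.736), and its log2 difference was 0.76 with mouse 2 and -0.73 without.

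Members with the -ps suffix contributed little RNA. Their sum averaged 16.9 ± 5.4 TPM in BALB/cJ ileum and 197 ± 101 TPM in C57BL/6J ileum (SD, n = 6 and 7). Defa-ps18 was listed at 0 in every BALB/cJ ileum, against 3.54, 121 and 145 TPM in C57BL/6J (adjusted p = 1.52e-05), and Defa-ps1, Defa-ps5, Defa-ps6 and Defa-ps8 were also called lower in BALB/cJ. Defa-ps1 and Defa-ps6 had the same value in 39 of 39 libraries and cannot be counted as separate measurements. Both are in the counts given here, and taken as 1 they leave 15 lower of 24 in ileum, 15 of 22 in duodenum/jejunum, and 6 higher of 18 in BALB/cJ ileum over duodenum/jejunum.

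The make-up of the alpha-defensin RNA therefore differed by strain. In BALB/cJ ileum, Defa31 took 25% of the Defa sum, Defa24 23.7%, Defa17 16.6%, Defa36 11.2% and Defa27 10.2%, and these 5 held 86.6%. In C57BL/6J ileum without mouse 2, Defa20 took 17.9%, Defa24 14.9%, Defa32 10.2%, Defa36 8.82% and Defa17 8.05%, and these 5 held 59.8%. The single shares, and so the 86.6% and 59.8%, depend on how reads were split among identical copies. As sums, Defa23 and Defa31 averaged 10984 TPM in BALB/cJ ileum and 8101 TPM in C57BL/6J ileum without mouse 2. Defa2, Defa20, Defa32 and Defa33 together averaged 26.3 and 31945 TPM. In BALB/cJ duodenum/jejunum Defa31 led with 28%, followed by Defa24 with 23.8%, whereas in C57BL/6J duodenum/jejunum Defa24 led with 22%, followed by Defa17 with 12.3%.

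**Figure D3:**
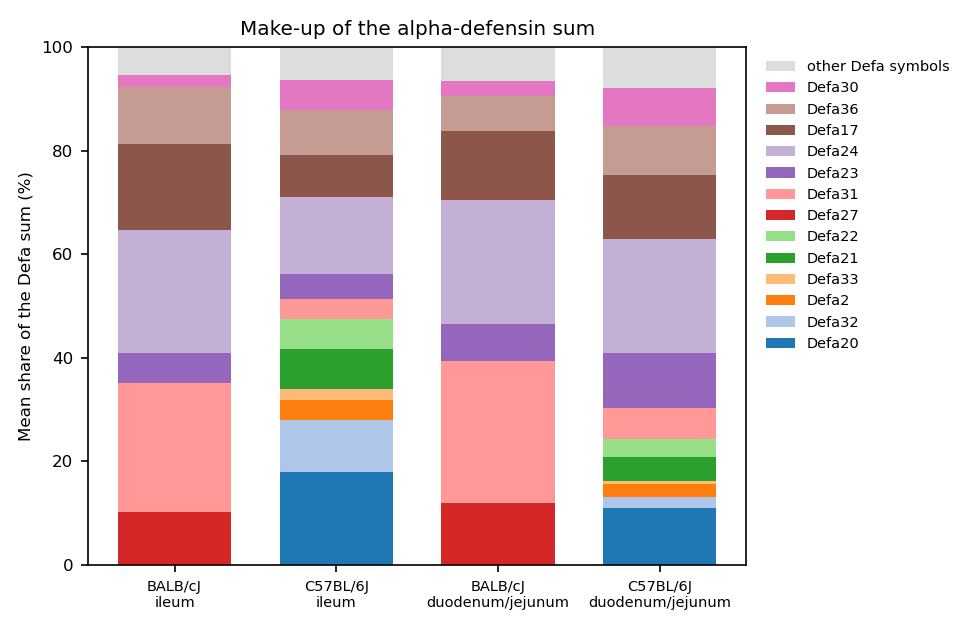
Mean share of the Defa sum (%) taken by each of 13 members, with all other Defa symbols in grey, in ileum and duodenum/jejunum of BALB/cJ (n = 6) and of C57BL/6J without mouse 2 (n = 6). Defa31 takes 25% in BALB/cJ ileum and Defa20 17.9% in C57BL/6J ileum, and the blue, orange and green blocks of Defa20, Defa32, Defa2, Defa33, Defa21 and Defa22 are not visible in BALB/cJ.

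In duodenum/jejunum the 7 members were again near 0 in BALB/cJ and Defa27 again near 0 in C57BL/6J. Of all 15306 genes tested there, 9.5% were called, 4.7% higher and 4.8% lower in BALB/cJ. Among 23 Defa members tested, 2 were higher and 16 lower in BALB/cJ, and the strains did not overlap in 15, beside 5.36% of all genes. Of these 23, 8 passed the filter through C57BL/6J alone: Defa2, Defa21, Defa26, Defa28, Defa33, Defa34, Defa35 and Defa-ps18. Defa27 passed through BALB/cJ alone. The filter set the direction of those called, all but Defa34, and the counts called and without overlap include such members. Among the 14 that passed in each strain, 1 was higher, 9 were lower and 4 were not called. Without mouse 2, 2 were higher and 15 lower, beside 8.93% of all genes (4.27% higher and 4.66% lower), and among those 14 members 1 was higher and 8 lower. Defa20 was listed at 5.62, 6.42 and 10.5 TPM in BALB/cJ, against 2895, 5031 and 8121 TPM in C57BL/6J, 758-fold lower by means (log2 difference -9.32, SE 0.22, adjusted p = 1.58e-13). Defa21 was 1379-fold lower, Defa22 649-fold lower, Defa32 353-fold lower and Defa26 219-fold lower in BALB/cJ by means (adjusted p = 2.19e-11, 1.59e-12, 8.53e-10 and 6.43e-10). Defa2 reached at most 0.00378 TPM in BALB/cJ, against 735, 943 and 1829 TPM in C57BL/6J, and Defa33 at most 0.00151 TPM, against 106, 164 and 581 TPM. All 7 were without overlap.

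Defa27 and Defa31 were the 2 members called higher in BALB/cJ duodenum/jejunum. Defa27 was listed at 3082, 3940 and 7306 TPM in BALB/cJ, against 0, 2.89 and 10.2 TPM in C57BL/6J, 1284-fold higher by means (log2 difference 10.49, SE 0.56, adjusted p = 2.65e-09). Defa31 was listed at 5662, 8879 and 18167 TPM in BALB/cJ, against 1350, 2742 and 4628 TPM in C57BL/6J, 3.68-fold higher by means and without overlap (log2 difference 1.91, SE 0.32, adjusted p = 0.000841). Defa30 (log2 difference -1.82, adjusted p = 4.64e-05), Defa3 (-1.11, 0.00137), Defa28 (-1.96, 0.000229), Defa35 (-2.87, 6.44e-05), Defa23 (-0.78, 0.0358) and Defa36 (-0.82, 0.0306) were lower. The calls of Defa36 and Defa23 were the least firm: that of Defa36 was lost without mouse 2 (adjusted p = 0.0511), with other size factors (0.0581) and without a filter (0.0753), and that of Defa23 without a filter (0.086). Defa30 stood at 629, 977 and 1596 TPM in BALB/cJ, against 2354, 3758 and 4568 TPM in C57BL/6J, without overlap. Defa36 stood at 1652, 2104 and 4089 TPM in BALB/cJ, against 3045, 4535 and 5936 TPM in C57BL/6J, with overlap.

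The other abundant members did not separate the strains in duodenum/jejunum. Defa24 stood at 5853, 7447 and 13001 TPM in BALB/cJ, against 6689, 9931 and 12776 TPM in C57BL/6J (adjusted p = 0.738). Defa17 stood at 2793, 4352 and 7474 TPM in BALB/cJ, against 3700, 5156 and 7283 TPM in C57BL/6J (adjusted p = 0.79). Defa29 stood at 862, 1225 and 2066 TPM in BALB/cJ, against 790, 1075 and 1498 TPM in C57BL/6J (log2 difference 0.26, adjusted p = 0.543). All 3 overlapped. Defa34 and Defa5 were not called either (adjusted p = 0.994 and 0.271).

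A test of the difference between the 2 strain differences called 0 of 25 Defa members between ileum and duodenum/jejunum, beside 0.338% of all genes (0.252% higher and 0.086% lower), and 1 of the 25 had an unadjusted p under 0.05 in limma. Without mouse 2, when 0.679% of all genes were called (0.537% higher and 0.142% lower), 3 members were: Defa33 (log2 -3.26, adjusted p = 2.01e-05), Defa29 (-2.25, 0.000721) and Defa2 (-1.64, 0.00575), each with a lower BALB/cJ over C57BL/6J ratio in ileum than in duodenum/jejunum. For Defa33 and Defa2, whose levels were at or near 0 in BALB/cJ in both tissues, these values follow the C57BL/6J level.

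Within BALB/cJ, the Defa sum in ileum was 0.966 times that in duodenum/jejunum by means, and the ileal value was higher in 2 of 6 mice. Defa29 was the member called lower in ileum, at 334, 430 and 569 TPM in ileum, against 862, 1225 and 2066 TPM in duodenum/jejunum, 2.93-fold lower in ileum and without overlap (log2 difference -1.52, SE 0.20, adjusted p = 8.61e-05). In the BALB/cJ comparison 37.6% of all genes were called, 30.6% higher and 6.99% lower in ileum, and the median of all genes was 0.217. Among the 19 Defa members tested, 7 were higher and 1 lower in ileum. Those higher were Defa5 (log2 1.43, adjusted p = 0.023), Defa35 (1.30, 0.00594), Defa20 (1.07, 0.0179), Defa22 (1.02, 0.0103), Defa36 (0.71, 0.0181), and Defa-ps1 and Defa-ps6 (0.98, 0.0155), of which Defa20 and Defa22 were below 30 TPM in both tissues. With size factors that bring the median of all genes near 0, Defa22 and Defa35 were higher and Defa29 lower, 2 and 1 of the members tested, beside 13.6% of all genes higher, 14% lower and 27.6% called.

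Within C57BL/6J, ileum held more Defa20, Defa32 and Defa33 RNA than duodenum/jejunum in every mouse except mouse 2, whose libraries ran the other way. With all 7 mice, 0 of 25 Defa members were called in ileum over duodenum/jejunum, beside 4.4% of all genes (1.93% higher and 2.48% lower), and 1 had an unadjusted p under 0.05. Without mouse 2, 14 were higher and 0 lower in ileum, beside 19.2% of all genes (9.78% higher and 9.37% lower). Defa32 was 9.55-fold higher in ileum by means (log2 3.36, SE 0.34, adjusted p = 1.35e-05) and Defa33 8.64-fold (3.26, adjusted p = 1.78e-05), both without overlap. Defa20 was 3.32-fold higher (1.74, adjusted p = 0.000467), Defa21 3.45-fold (1.80, 0.000403), Defa22 3.40-fold (1.77, 0.000502), Defa2 3.03-fold (1.64, 0.000713) and Defa36 1.92-fold (0.91, 0.0222). Defa3, Defa17, Defa23, Defa24, Defa26, Defa29, Defa30 and Defa31 were not called.

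The sums by copy group followed the same pattern. The 4 genes that share the Defa20 exon summed to 4.27 times as much in ileum as in duodenum/jejunum of C57BL/6J without mouse 2, and to 3.37 times with it. The Defa entries outside the 7 BALB/cJ-low members summed to 1.44 times as much without mouse 2, and to 1.27 times with it. The whole Defa sum was 2.06 times as high in ileum without mouse 2, higher in 6 of 6 mice, and 1.78 times with it, higher in 6 of 7. The ratio of Defa32 to Defa20 was 0.519, 0.561 and 0.656 in the 6 other C57BL/6J ilea, against 0.145, 0.180 and 0.265 in their duodenum/jejunum. In mouse 2 it was 0.187 in the library labelled ileum and 0.501 in the library labelled duodenum/jejunum. The ratio of Defa33 to Defa2 was nearly equal to that of Defa32 to Defa20 in each of the 14 C57BL/6J libraries, with a largest gap of 0.458% in ileum (0.367% without mouse 2) and 1.70% in duodenum/jejunum, so these are not separate measurements of each copy.

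**Figure D4:**
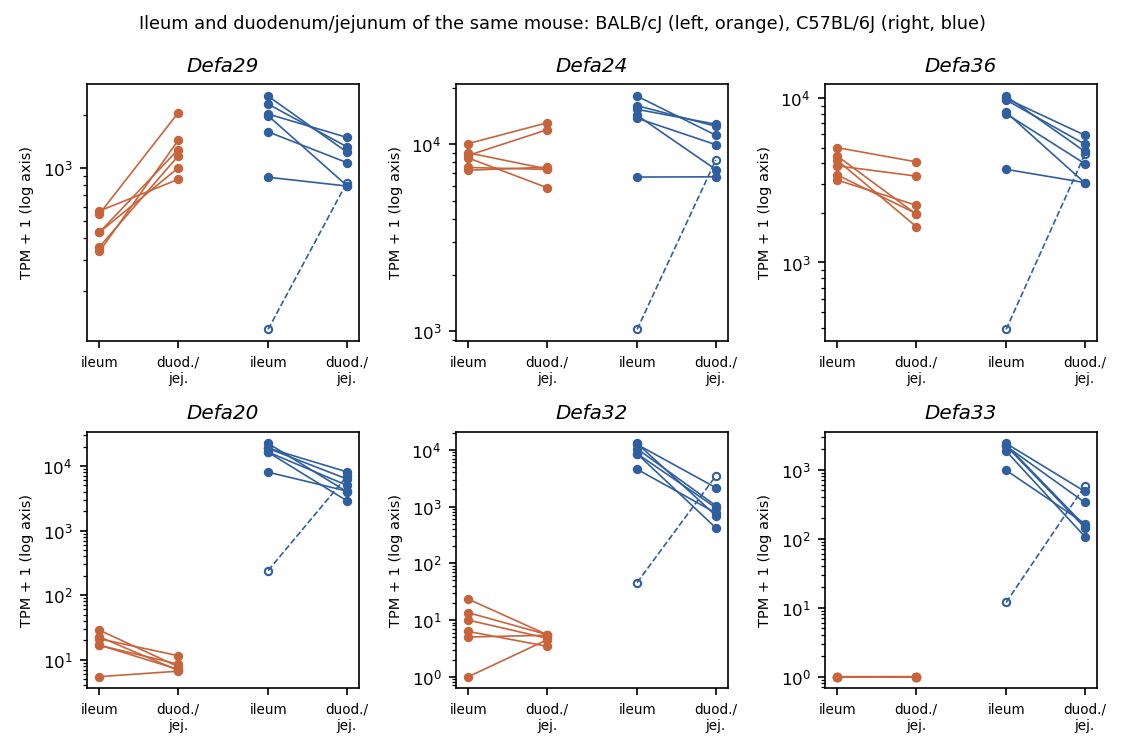
TPM + 1 (log axis) of 6 Defa members in ileum and duodenum/jejunum, with a line joining the libraries of each mouse, BALB/cJ left in orange and C57BL/6J right in blue, and C57BL/6J mouse 2 as open circles on a dashed line. Defa29 is lower in ileum in every BALB/cJ mouse, Defa32 and Defa33 are higher in ileum in every C57BL/6J mouse except mouse 2, and Defa33 is at or near 0 in BALB/cJ.

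In colon, Defa RNA was low in both strains, and little separated them. Of all 15769 genes tested in colon, 25.3% were called, 14.5% higher and 10.8% lower in BALB/cJ. Of 14 Defa members tested, 0 were higher and 1 was lower, and the strains overlapped in all 14, whereas 11.5% of all genes did not overlap. The member called was Defa20, at 4.42, 4.95 and 9.10 TPM in BALB/cJ, against 5.23, 9.60 and 20.2 TPM in C57BL/6J (log2 difference -0.70, SE 0.24, adjusted p = 0.0488), a call lost without a filter on low values (0.0861) and in a robust fit with no variance trend (0.0532). Defa24 led in both colons, at 6.67, 14.7 and 35.5 TPM in BALB/cJ, against 8.35, 11.5 and 20.1 TPM in C57BL/6J. Defa27 was listed at 0, 1.65 and 10.1 TPM in BALB/cJ colon, against 0, 0 and 2.68 TPM in C57BL/6J colon, and was not called. The 7 members near 0 in the BALB/cJ small intestine summed to 12.2 ± 4.3 TPM in BALB/cJ colon (SD, n = 6) and 21.8 ± 10.1 TPM in C57BL/6J colon (SD, n = 7).

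The strain differences of several members in ileum differed from those in colon. The interaction in limma called 12 of 25 Defa members between ileum and colon, 1 higher and 11 lower, beside 5.33% of all genes (3.78% higher and 1.55% lower). Without mouse 2 it called 19, 1 higher and 18 lower, beside 6.64% of all genes (4.56% higher and 2.09% lower). These counts too include members that passed the filter through their high group alone. Defa levels in colon were low in both strains (Defa21 averaged 1.93 TPM in BALB/cJ and 3.11 TPM in C57BL/6J). The interaction therefore largely follows the ileal difference. With the mouse as a block, Defa30 was called too (adjusted p = 0.00769). The member with the higher BALB/cJ over C57BL/6J ratio in ileum was Defa27 (log2 8.70, adjusted p = 1.52e-08), and those with the lower ratio included Defa20 (-8.36, 2.6e-06) and Defa21 (-10.91, 3.5e-07).

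Compared with colon, both small intestinal tissues held far more Defa RNA. The sum was 439 times as high in BALB/cJ ileum and 1176 times as high in C57BL/6J ileum as in the colon of the same strain. In duodenum/jejunum it was 454 times as high as in colon in BALB/cJ and 661 times in C57BL/6J. In BALB/cJ, 16 of 18 Defa members tested were higher in ileum than in colon and 0 were lower, beside 17.3% of all genes higher, 33.9% lower and 51.3% called in either direction. The exceptions were Defa21 (adjusted p = 0.383) and Defa32 (adjusted p = 0.163). Of these 18, 9 passed the filter through ileum alone, which set their direction, and all 7 that passed in each tissue were higher. In C57BL/6J all 25 tested were higher in ileum, beside 15.8% of all genes higher, 50% lower and 65.8% called, and so they were without mouse 2, beside 16.5%, 50.1% and 66.6%. Of these 25, 17 passed the filter through ileum alone (18 without mouse 2), and the other 8, which passed in each tissue, were higher too. For duodenum/jejunum over colon, 13 of 17 were higher in BALB/cJ, beside 14.7% of all genes higher, 50.5% lower and 65.2% called, and 7 of the 17 passed the filter through duodenum/jejunum alone. Defa20, Defa21, Defa22 and Defa32 were not called there (adjusted p = 0.177, 0.93, 0.0954 and 0.0523), but with the mouse as a block Defa22 and Defa32 were (adjusted p = 0.041 and 0.0394). In C57BL/6J 22 of 23 were higher in duodenum/jejunum, beside 15.9% of all genes higher, 53.1% lower and 69% called. Without mouse 2 the count was again 22 of 23, beside 16.4%, 50.1% and 66.5%. With all mice, 14 of the 23 passed the filter through duodenum/jejunum alone, and all 8 that passed in each tissue were higher. The member not called with all mice was Defa27 (adjusted p = 0.278).

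Among the other Paneth cell products, ileal levels showed no strain call with all mice included. Of 6 products tested in ileum, 0 were then called, beside 20.4% of all genes, and 0 had an unadjusted p under 0.05 in limma. Without mouse 2, Ang4 was called lower in BALB/cJ (adjusted p = 0.000202) and the others were not, beside 23.5% of all genes. Ang5 and Ang6, relatives of Ang4, were not tested, with at most 0.841 TPM of Ang5 and 0.127 TPM of Ang6 in ileum. Lyz1 was listed at 3722, 3863 and 5005 TPM in BALB/cJ ileum, against 473, 6596 and 7006 TPM in C57BL/6J ileum (log2 difference -0.01, adjusted p = 0.988). Without mouse 2 the log2 difference of Lyz1 was -0.53 (SE 0.20, unadjusted p = 0.0184, adjusted p = 0.0673). Mmp7 was listed at 177, 254 and 326 TPM in BALB/cJ, against 19.6, 259 and 308 TPM in C57BL/6J (adjusted p = 0.456). Itln1 was listed at 1215, 1380 and 1626 TPM in BALB/cJ, against 215, 1990 and 2155 TPM in C57BL/6J (adjusted p = 0.891). Nupr1 was listed at 78.3, 86.4 and 113 TPM in BALB/cJ, against 10.7, 79.8 and 87.2 TPM in C57BL/6J (adjusted p = 0.236), and Habp2 at 18.7, 21.9 and 25.4 TPM in BALB/cJ, against 1.6, 19.4 and 21.4 TPM in C57BL/6J (adjusted p = 0.226). In each the lowest C57BL/6J value was mouse 2, and the strains overlapped.

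The same genes overlapped between the strains in duodenum/jejunum and were not called. Lyz1 stood at 2553, 4010 and 5316 TPM in BALB/cJ, against 2484, 3688 and 5211 TPM in C57BL/6J. Mmp7 stood at 82.1, 148 and 211 TPM in BALB/cJ, against 102, 117 and 186 TPM in C57BL/6J. Itln1 stood at 828, 1133 and 2185 TPM in BALB/cJ, against 789, 1376 and 1788 TPM in C57BL/6J.

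Ang4 was lower in BALB/cJ duodenum/jejunum, the 1 product of 6 called there, beside 9.5% of all genes (4.7% higher and 4.8% lower). It was listed at 73.4, 98.9 and 171 TPM in BALB/cJ, against 263, 359 and 527 TPM in C57BL/6J, 3.35-fold lower by means and without overlap (log2 difference -1.74, SE 0.23, adjusted p = 0.000105). In ileum it was listed at 149, 210 and 244 TPM in BALB/cJ, against 32.7, 692 and 809 TPM in C57BL/6J (log2 difference -1.01, adjusted p = 0.25), and without mouse 2 it was 3.19-fold lower in BALB/cJ and without overlap (log2 difference -1.61, SE 0.22, adjusted p = 0.000202). Per 100 TPM of Lyz1, Ang4 stood at 5.07 ± 0.65 TPM in BALB/cJ ileum and 10.1 ± 1.57 TPM in C57BL/6J ileum (SD, n = 6 and 7, mouse 2 included). In duodenum/jejunum it stood at 2.85 ± 0.61 TPM in BALB/cJ and 10.3 ± 0.82 TPM in C57BL/6J (SD, n = 6 and 7).

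In colon 5 products were tested, and 4 were higher and 1 lower in BALB/cJ, beside 14.5% of all colon genes higher and 10.8% lower. Mmp7 was listed at 5.04, 10.8 and 16.7 TPM in BALB/cJ, against 1.02, 1.85 and 2.63 TPM in C57BL/6J, 5.91-fold higher by means and without overlap (log2 difference 2.00, SE 0.23, adjusted p = 1.81e-05). Itln1 was listed at 15.7, 34.1 and 47.0 TPM in BALB/cJ, against 2.58, 4.41 and 19.6 TPM in C57BL/6J (log2 difference 2.17, SE 0.38, adjusted p = 0.000784). Nupr1 was listed at 454, 579 and 914 TPM in BALB/cJ, against 300, 424 and 431 TPM in C57BL/6J, without overlap (log2 difference 0.67, SE 0.15, adjusted p = 0.00551). Nupr1 RNA was higher in colon than in ileum in both strains, so it did not track Lyz1 and the Defa members across tissues. The strains overlapped for Itln1 only in their extremes.

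Lyz1 in colon was listed at 12.8, 16.7 and 25.5 TPM in BALB/cJ, against 8.30, 11.9 and 13.3 TPM in C57BL/6J, 1.54-fold higher by means (log2 difference 0.57, SE 0.15, adjusted p = 0.0138). Ang4 was lower in BALB/cJ colon, at 39.1, 64.8 and 93.5 TPM, against 51.6, 159 and 473 TPM in C57BL/6J (log2 difference -1.29, SE 0.44, adjusted p = 0.0441), and that call was lost without mouse 2 (adjusted p = 0.0798), without a filter (0.0799) and in the robust fit (0.0548). The strains overlapped for both genes. Markers of other cells also moved in colon: all 5 B cell markers were higher in BALB/cJ, with sums of 29.6 to 44.3 TPM in BALB/cJ and 8.73 to 16.6 TPM in C57BL/6J, and 4 of 5 macrophage markers were higher, with sums of 294 to 568 TPM in BALB/cJ and 151 to 292 TPM in C57BL/6J. Of 7 goblet cell markers 3 were higher and 1 lower, and all 5 proliferation markers were lower in BALB/cJ colon. Their part in the colon results was not tested. The strain difference in ileum was lower than that in colon without mouse 2 for Itln1 (interaction log2 -2.44, adjusted p = 0.00195), Mmp7 (-1.92, 0.000388) and Lyz1 (-1.08, 0.012), but not with it for Itln1 (-2.07, 0.0519), Mmp7 (-1.44, 0.16) or Lyz1 (-0.58, 0.576).

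**Figure D5:**
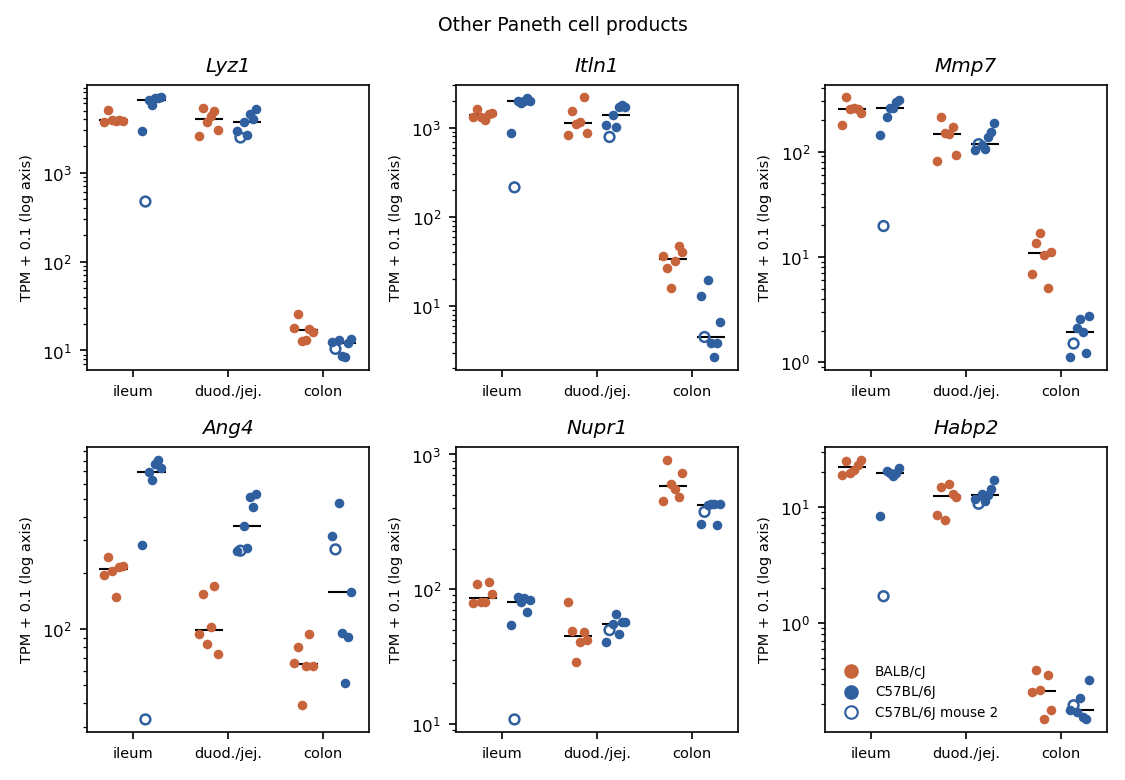
TPM + 0.1 (log axis) of Lyz1, Itln1, Mmp7, Ang4, Nupr1 and Habp2 in each library by tissue, BALB/cJ left of C57BL/6J, with a black line at the group median and an open circle for C57BL/6J mouse 2. Ang4 is lower in BALB/cJ duodenum/jejunum (73.4 to 171 TPM, against 263 to 527 TPM), Mmp7 is higher in BALB/cJ colon (5.04 to 16.7 TPM, against 1.02 to 2.63 TPM), and Nupr1 is highest in colon in both strains.

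The products differed among themselves across tissues. Lyz1 was higher in ileum than in colon in both strains (log2 7.83, SE 0.14, adjusted p = 3.43e-14 in BALB/cJ; 8.41, SE 0.50, adjusted p = 1.62e-09 in C57BL/6J), and so were Itln1, Mmp7 and Habp2. Nupr1 ran the other way, lower in ileum than in colon by log2 differences of -2.72 in BALB/cJ and -2.71 in C57BL/6J (adjusted p = 8.29e-09 and 1.26e-05). Ang4 was higher in BALB/cJ ileum than in BALB/cJ colon (log2 1.61, adjusted p = 3.88e-06) and not called in C57BL/6J (1.33, adjusted p = 0.102). Within BALB/cJ, Mmp7 (log2 0.87, adjusted p = 0.00678), Ang4 (0.90, 0.00313), Habp2 (0.87, 0.00124) and Nupr1 (0.98, 0.00173) were higher in ileum than in duodenum/jejunum.

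Other secreted products found in Paneth cells, some of them also in the lists of other cell types, moved in both directions. Of 14 tested, 3 were higher and 1 lower in BALB/cJ ileum, 3 were higher and 1 lower in duodenum/jejunum, and 5 were higher and 2 lower in colon, to be read beside the 20.4%, 9.5% and 25.3% of all genes called. The 3 higher in ileum include Lyz2 (limma adjusted p = 0.00524), which is also counted among the macrophage markers. Tff3, on the same list, is also counted among the goblet cell markers. Pla2g2a, the secreted phospholipase that attacks bacterial membranes and is mutated in C57BL/6 mice, was 38.2-fold higher in BALB/cJ ileum, 45.7-fold in duodenum/jejunum and 15.1-fold in colon by means. The mucosal pentraxin Mptx1 averaged 74.1 TPM in BALB/cJ duodenum/jejunum and 3.12 TPM in C57BL/6J, 23.8-fold higher, and its relative Mptx2 averaged 45.2 TPM in BALB/cJ and 398 TPM in C57BL/6J, 8.82-fold lower. In colon both ran the other way, with Mptx1 5.17-fold lower and Mptx2 51.0-fold higher in BALB/cJ by means (adjusted p = 3.37e-05 and 2.46e-11).

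Calls among genes of Paneth cell specification and the crypt niche are to be read beside the 20.4% of all genes in ileum, 9.5% in duodenum/jejunum and 25.3% in colon that were called. The ileal share was 11.8% with size factors that bring the median of all genes near 0. Of 22 tested in ileum, 2 were higher and 0 lower in BALB/cJ, the bacterial sensor Nod2 (log2 difference 0.44, adjusted p = 0.0166) and the basic helix-loop-helix factor Tcf4 (0.55, 0.0254). Without mouse 2, 4 were higher and 1 lower, among them the zinc transporter Slc30a2 (0.59, 0.00894), the secretory-lineage factor Spdef (0.30, 0.02) and Ephb2 (-0.53, 0.00253). In duodenum/jejunum 0 were higher and 2 lower, the receptor Ephb2 that positions cells along the crypt (-0.64, 0.0316) and the secretory stress factor Xbp1 (-0.24, 0.032), and without mouse 2 the call of Ephb2 was lost and only Xbp1 was lower (-0.26, 0.0227). In colon 0 were higher and 3 of 20 lower, among them Ephb2 (-0.82, 6.33e-08) and the Wnt receptor Fzd5. Stem cell markers summed to 443 to 560 TPM in BALB/cJ ileum and 188 to 453 TPM in C57BL/6J ileum, with 2 of 5 higher, while 0 of 7 goblet cell markers (1 without mouse 2) and 0 of 6 enterocyte markers were called in ileum. In ileum 3 of 5 B cell markers and 3 of 5 macrophage markers were also higher in BALB/cJ. Their part in the ileal results was not tested.

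Promoters are shown for a gene lower and a gene higher in BALB/cJ, because members differed together between the strains. The 250 bases before the start of Defa20 (chr8:21509008-21509257) and of Defa31 (chr8:21191323-21191572) are shown from RefSeq promoter windows of GRCm38.p6, plus strand, with capitals at ATCAAAG, the reverse complement of CTTTGAT.
Defa20 promoter: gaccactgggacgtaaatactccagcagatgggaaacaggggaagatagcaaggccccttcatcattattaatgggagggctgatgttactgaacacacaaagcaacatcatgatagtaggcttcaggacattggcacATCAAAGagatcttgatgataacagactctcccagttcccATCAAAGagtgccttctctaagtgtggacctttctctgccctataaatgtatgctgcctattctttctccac
Defa31 promoter: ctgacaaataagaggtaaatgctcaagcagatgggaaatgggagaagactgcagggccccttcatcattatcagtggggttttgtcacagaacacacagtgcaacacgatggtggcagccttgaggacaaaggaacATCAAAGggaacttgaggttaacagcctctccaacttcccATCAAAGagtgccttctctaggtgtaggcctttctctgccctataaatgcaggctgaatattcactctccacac
Both hold the word at a pair of places. CTTTGAA or CTTTGAT on either strand, the words bound by T-cell factor proteins of the Wnt pathway, were found in 12 of the 12 Defa members, of 39, that had a promoter window under a Defa symbol of the files. Of 4 further alpha-defensins that RefSeq names and the files list under other symbols, Defa41 held 2 words and Defa38, Defa42 and Defa43 held 0. The words were found in 8.65% of all 32851 promoters of 300 bases each. The 12 Defa promoters belong to a cluster of duplicates, so they are not independent cases, and the difference in share was not tested. Mmp7 held 1 such word and Lyz1, Ang4, Itln1, Nupr1 and Habp2 held 0. The sequence is that of the C57BL/6J build, so it does not show the BALB/cJ promoters.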

How the data were processed

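RNA was extracted with PureLink kits and made into total RNA TruSeq libraries with RiboZero depletion, per the labels' protocols. The authors deposited log2 values per gene, log2(TPM + 1), in a table per tissue, made with kallisto 0.44.0 on GRCm38, per the submitters' processing notes; no source used here names the transcript annotation. Values were turned back into TPM for levels and sums. Because these are not counts, strains and tissues were compared with limma 3.58.1 in R 4.3.3 (variance trend, two-sided) on log2(TPM + 1) over genes that reached 1 TPM in at least 6 libraries, with Benjamini-Hochberg adjustment over all genes tested; the fit was tested on simulated data. Strain comparisons used the libraries of 1 tissue and tissue comparisons those of 1 strain. 26 entries whose names had become numbers or dates were left out of the tests. The members, lists and rule for named genes (members with a mean of at least 100 TPM in a group, and all products) were chosen with earlier results of these data known. The replicates are separate mice. Mouse numbers are shared between tissues because the same animal gave them, with correlations of deviations from -0.202 to 0.528 between tissues. Alternatives were another pseudocount, no filter, a stricter filter, other scalings, a robust fit without a trend, leaving out C57BL/6J mouse 2, and a block for the mouse number. Coding exons were read from GENCODE transcripts on GRCm38 and promoters from RefSeq. Genes of the pathway and cell type lists are named by the smallest adjusted p, up to 4 a list and tissue.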

Additional observations from a re-analysis of the deposited data

Results flagged for a closer look

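In 9 of 135 groups of a gene, strain and tissue that were checked, the highest or lowest library lay far from the others, and chance gives about 1 in 20. In BALB/cJ ileum these were Defa22 in mouse 6 (13.6 TPM, median of the others 5.35 TPM), Defa34 in mouse 4 (89.3 TPM, 20.6 TPM) and Lyz1 in mouse 2 (5005 TPM, 3848 TPM). In BALB/cJ duodenum/jejunum it was Defa23 in mouse 2 (4238 TPM, 2494 TPM). In BALB/cJ colon they were Defa17 in mouse 2 (25.1 TPM, 8.48 TPM), Defa20 in mouse 6 (9.10 TPM, 4.71 TPM) and Defa21 in mouse 6 (6.11 TPM, 1.46 TPM). In C57BL/6J colon they were Defa21 in mouse 7 (9.79 TPM, 2.28 TPM) and Defa22 in mouse 6 (9.86 TPM, 1.48 TPM). Of the 9, 0 were C57BL/6J mouse 2 in ileum, although its Lyz1 was 473 TPM, against a mean of 6037 TPM in the other C57BL/6J ilea. The list is therefore no sign that this library was like the others.

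The strain difference in ileum differed from that in colon, by the interaction in limma on log2(TPM + 1), for Defa20 (log2 -8.36, adjusted p = 2.6e-06), Defa21 (-10.91, 3.5e-07), Defa22 (-8.15, 3.67e-05), Defa26 (-7.19, 2.07e-07), Defa32 (-8.59, 0.00014) and Defa27 (8.70, 1.52e-08). It also differed for Defa2 (-10.89, 3.01e-09) and Defa33 (-9.85, 8.82e-07), whose size rests on the added 1 because BALB/cJ ileum was listed at 0. Colon levels were low in both strains, so all of these values largely follow the ileal difference.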

How the results depend on the processing

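Over 527 alternatives for 67 pairs of a member and a tissue, 499 strain calls kept their direction and side of the threshold, 13 lost the threshold, 7 passed it and 8 changed sign; another pseudocount and scaling without the Defa genes kept 67 of 67 each. Counts moved by over 1.5 times as follows, and the count of specification and niche genes in ileum was 5 without C57BL/6J mouse 2, against 2. In ileum 1 product was called without a filter and 1 without C57BL/6J replicate 2, against 0. In duodenum/jejunum 2 products were called without a filter, against 1. In colon 0 Defa members were called without a filter and 0 in the robust fit with no trend, against 1. Without C57BL/6J mouse 2, 14 Defa members were called in C57BL/6J ileum over duodenum/jejunum, against 0, 3 in the interaction of ileum and duodenum/jejunum, against 0, and 19 in that of ileum and colon, against 12. With size factors, 3 were called in BALB/cJ ileum over duodenum/jejunum, against 8. Signs changed without mouse 2 for Defa5 (-0.73) and Defa17 (-0.29) in ileum, Itln1 in ileum (-0.33, and -0.0861 with size factors) and Defa30 in colon (-0.29), none of them called. The cause was not tested, and tissue comparisons within BALB/cJ have no value without C57BL/6J mouse 2. The ratio of the ileal Defa sum ran from 0.380 to 0.441.

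Mouse numbers shared between strains name different animals, with correlations of -0.418 to 0.211, so a replicate block has no pairing behind it there. With the replicate block, 13 Defa members were called in ileum, against 17, 17 in duodenum/jejunum, against 18, and 1 in colon, against 1, beside 5.98%, 7.45% and 18.5% of all genes; Defa30, Defa35, Defa-ps1 and Defa-ps6 in ileum (adjusted p = 0.0942, 0.105, 0.116 and 0.116), Defa23 in duodenum/jejunum (0.158) and Ang4 in colon (0.119) were not called, and the sign changed for Lyz1 in ileum (0.12), Defa3 in colon (0.11) and Defa36 in colon (0.0328). Between tissues, where numbers mark the same animal, the replicate block changed no member's call other than those of Defa22, Defa32 and Defa30 given above. Depth is unknown, so levels near 0 carry no limit.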

Other observations

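Several entries outside the Defa symbols are alpha-defensin genes in RefSeq under other names, and they were looked up after the data were seen. In ileum, Gm7861 (RefSeq Defa43) averaged 3.11 TPM in BALB/cJ and 6687 TPM in C57BL/6J (log2 difference -10.34, limma adjusted p = 8.71e-09), and Gm14851 (Defa38) averaged 1.35 TPM in BALB/cJ and 3166 TPM in C57BL/6J (-10.33, 2.58e-09). AY761184 (Defa39) averaged 217 TPM in BALB/cJ and 1511 TPM in C57BL/6J (-2.57, 0.000569). Gm15292 (Defa40) ran the other way, at 576 TPM in BALB/cJ and 162 TPM in C57BL/6J (2.31, 0.0217). Added to the Defa sum, these relatives gave 36601 ± 4981 TPM in BALB/cJ ileum (SD, n = 6) and 92788 ± 47497 TPM in C57BL/6J ileum (SD, n = 7), a ratio of 0.394.

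The strain difference of the pentraxins had opposite directions in ileum and colon, and the interaction was log2 8.17 for Mptx1 (adjusted p = 4.81e-15) and -7.71 for Mptx2 (adjusted p = 1.45e-07).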
